A study of Mus musculus with 2 samples.

Results

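IAPLTR2a2 is one of the long terminal repeat (LTR) subfamilies of the intracisternal A particle (IAP), a mouse retrovirus-like element that still moves in the genome. CpG methylation of its LTR copies was read by TEPBAT, a bisulfite sequencing method that tags the DNA after conversion and enriches IAP ends by PCR, in 1 sperm library and 1 tail library. Both DNAs came from the same adult male mouse of the C57BL/6J strain, with no treatment or mutation, so that the groups differ by tissue and by library at once. Tail DNA holds many somatic cell types in unknown shares. The members are the CpG positions, a C on either strand, inside the LTR copies annotated as IAPLTR2a2 in the rows of the study's list of IAP copies used here (1997 of 28601 rows, from chromosome 1 and chromosome 10). Of 142 such LTRs, 133 had at least 20 methylation calls in both libraries, and these hold 1426 of the 1485057 CpG positions that have a call in at least 1 library. There were 53 solo LTRs, 43 5′ LTRs and 37 3′ LTRs, with 117 on chromosome 1 and 16 on chromosome 10.

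An IAP element carries the same LTR at both ends at the time of insertion. The LTR consists of U3, with the promoter, R, which holds the polyadenylation signal, and U5. The 5′ LTR drives transcription of the element, the 3′ LTR ends its transcript, and recombination between both LTRs leaves a solo LTR. Methylation of CpGs in LTRs is known to silence IAP elements, and IAPs are known to resist much of the loss of methylation that the genome passes through in germ cells and early embryos.

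In TEPBAT, bisulfite turns unmethylated C into U, a random primer copies the DNA, and a PCR primer in the LTR then selects IAP fragments. The primer IAP-BS2 lies over the polyadenylation signal and reads toward the 3′ end of the LTR, and IAP-BS1 lies near the start of the LTR and reads toward the 5′ flank. The sequences that carry the results are the IAP-BS2 primer, which fixes what could be read, the first 100 bases of a solo LTR with the upstream CpGs, and the last 100 bases of the LTRs described most closely, in sense direction. All LTR sequences are from the GRCm38 reference, which the mm10 coordinates of the files match, and capitals mark the CpGs. The primer is 30 bases long, and aataaa in it is the polyadenylation signal.
IAP-BS2: ggtttttgaagatgtaagtaataaagtttt
First bases of solo LTR chr1:102909214-102909698 (chr1:102909599-102909698, minus strand): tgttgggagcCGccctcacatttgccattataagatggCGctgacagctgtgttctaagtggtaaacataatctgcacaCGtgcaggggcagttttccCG
Last bases of the same solo LTR (chr1:102909214-102909313, minus strand): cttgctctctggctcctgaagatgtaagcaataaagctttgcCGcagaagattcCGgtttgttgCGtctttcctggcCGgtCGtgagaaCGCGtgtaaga
Last bases of solo LTR chr1:160767456-160767904, in Rabgap1l (chr1:160767805-160767904, plus strand): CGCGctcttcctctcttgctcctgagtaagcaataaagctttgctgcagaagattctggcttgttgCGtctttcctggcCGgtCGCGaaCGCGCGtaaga
Last bases of solo LTR chr1:105618097-105618587, in Pign (chr1:105618488-105618587, plus strand): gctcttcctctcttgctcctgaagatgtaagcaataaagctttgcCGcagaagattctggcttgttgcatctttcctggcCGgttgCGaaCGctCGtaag
Last bases of 5′ LTR chr1:172265674-172266012, in Igsf8 (chr1:172265913-172266012, plus strand): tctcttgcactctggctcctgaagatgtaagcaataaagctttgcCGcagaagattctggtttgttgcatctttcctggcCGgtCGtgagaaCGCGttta
Last bases of the 3′ LTR of the same element (chr1:172269629-172269728, plus strand): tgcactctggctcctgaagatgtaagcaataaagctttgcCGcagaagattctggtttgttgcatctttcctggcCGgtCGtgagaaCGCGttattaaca
Last bases of 3′ LTR chr1:50162141-50162582 (chr1:50162483-50162582, plus strand): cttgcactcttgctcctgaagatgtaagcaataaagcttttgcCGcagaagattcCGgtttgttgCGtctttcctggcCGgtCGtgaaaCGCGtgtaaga
Last bases of 3′ LTR chr1:108139510-108139896 (chr1:108139797-108139896, plus strand): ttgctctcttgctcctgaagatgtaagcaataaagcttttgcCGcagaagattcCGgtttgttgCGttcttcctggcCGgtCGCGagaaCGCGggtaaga
Last bases of 3′ LTR chr1:8658361-8658689, the most common end, shared by 13 LTRs (chr1:8658361-8658460, minus strand): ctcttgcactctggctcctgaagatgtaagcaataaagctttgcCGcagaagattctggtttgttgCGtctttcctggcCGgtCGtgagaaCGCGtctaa

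The LTRs were 224 to 612 bp long (median 416) and held 6 to 24 CpGs (median 15). A call is the state of 1 CpG in 1 read, and a methylation level is the fraction of methylated calls. The members took 1170991 calls in sperm and 545413 in tail, which is 1.22% and 0.985% of the calls in each file. Of these, 96.7% in sperm and 96.1% in tail fell on the sense strand downstream of IAP-BS2. Levels were described at 896 positions with at least 10 calls in both libraries, which lie in 129 LTRs. Their median depth was 502 calls in sperm and 286 in tail. IAP-BS2 matched 108 of the 133 LTRs with at most 1 mismatch (median 1), whereas IAP-BS1 matched 1 of 133 exactly (median 3 mismatches). In IAPLTR1, IAPLTR1a, IAPLTR2, IAPLTR2a and IAPLTR2b the median for IAP-BS1 was 0 mismatches. The upstream part of IAPLTR2a2 was read at 98 positions and at a median of 43.0 calls in sperm and 41.5 in tail, against 790 positions with 674 and 333 calls downstream, and the stretch between both primers at 8 positions.

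As a check of the labels, calls were counted around the gene starts of 16 imprinted genes. Their control regions are known to be unmethylated in sperm and methylated on 1 allele in somatic tissue. Around these gene starts, 2 of 190 calls (1.05%, exact 95% interval 0.128 to 3.75) were methylated in sperm and 27 of 249 (10.8%, 7.27 to 15.4) in tail. At most 7 of these genes had 20 calls in a library. Zrsr1 and Impact, with at least 20 calls in both, had 1 of 87 and 1 of 38 calls methylated in sperm. In tail they had 0 of 52 and 0 of 23, so that a methylated allele was not seen in tail at either gene. Of the methylated tail calls, 15 were at Inpp5f, which had 0 calls in sperm. On 5 germline gene starts the libraries held 32 calls in sperm, none methylated (upper bound 10.9%), and 5 in tail, all methylated. The sperm calls were at Dazl and Mael and the tail calls at Ddx4, so no germline gene was read in both libraries. The check thus rests largely on different genes in each library and does not settle the labels. On the mitochondrial genome, a measure of incomplete conversion, 5 of 71 sperm calls were methylated (7.04%, exact 95% interval 2.33 to 15.7). In tail 8 of 1277 calls were methylated (0.626%, 0.271 to 1.23). These intervals do not overlap, and the part of incomplete conversion in the levels was not tested. PCR copies were not marked by molecular identifiers, so the intervals of shares of calls cover counting error only. Intervals of medians and of shares of positions take positions or LTRs as units and leave out the counting error of calls. None of the intervals covers differences between animals or libraries. Since each tissue has 1 library, the tests set one library against the other, not sperm against tail as tissues.

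Most CpGs of IAPLTR2a2 LTRs were highly methylated in both libraries. Over the 896 positions the median level was 0.900 in sperm (95% interval of the median 0.889 to 0.911) and 0.925 in tail (0.917 to 0.933), with quartiles of 0.760 and 0.969 in sperm and 0.845 and 0.974 in tail. Levels above 0.8 were found at 627 positions in sperm (70.0%, exact interval 66.9 to 73.0) and at 728 in tail (81.2%, 78.5 to 83.8). Levels at or under 0.2 were found at 17 positions in sperm (1.90%, 1.11 to 3.02) and at 6 in tail (0.670%, 0.246 to 1.45). The median difference, sperm minus tail, was -0.0087 (-0.014 to -0.0024), and sperm was below tail at 490 of 896 positions.

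Each position was tested with Fisher's exact test (two-sided, Benjamini-Hochberg over all 107519 positions of both files with at least 10 calls in each) and scored at an adjusted p under 0.05 and a difference of at least 0.2. Of the 896 member positions, 140 (15.6%) were scored lower in sperm, where the share among all tested positions was 11.8%. Another 48 (5.36%) were scored higher in sperm, against 7.75% of all tested positions. With 20 bases at each end of the LTRs left out, 59 of 470 positions (12.6%) were lower and 29 (6.17%) higher. The share was lowest at the greatest depth. With at least 10 but under 100 calls in the shallower library, 17.3% of 254 positions were lower and 7.48% higher, against 13.3% and 10.0% of all tested positions of that depth. With at least 100 but under 1000 calls, 17.8% of 483 were lower and 5.59% higher, against 11.9% and 6.19%. At 1000 calls or more in both libraries, 10 of 159 positions (6.29%) were lower and 2 (1.26%) higher, and among all tested positions of that depth 4.65% were lower and 2.41% higher.

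CpGs at the same place of the aligned LTRs were compared as 10 conserved sites, numbered from the 5′ end, each measured in at least 20 LTRs. Sites 1 and 2 lie upstream of IAP-BS1, about 40 and 81 bases from the LTR start, and were read on the antisense strand. Sites 3 to 10 lie downstream of IAP-BS2, within about 57 bases of the LTR end. In the last bases of chr1:102909214-102909698 printed above, the capitals are sites 3, 4, 5, 6, 7, 9 and 10. Site 8 is the second CG of the CGCG that other copies carry where this copy reads CGtg, as in chr1:108139510-108139896. The sites differ in how often they are kept. Of the 133 reference copies, 117 held CG at site 6, 4 TG and 7 CA, whereas 73 held CG at site 4 and 50 TG. TG and CA are what is left when a methylated C on one or the other strand is deaminated.

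Of the downstream sites, site 6 had the highest median in sperm, with 0.939 in sperm and 0.965 in tail over 109 LTRs. The lowest medians in both libraries were at site 5, with 0.828 in sperm and 0.865 in tail over 90 LTRs. Site 4 followed, with 0.874 in sperm and 0.869 in tail over 70 LTRs. Quartiles at site 5 were 0.706 and 0.907 in sperm and 0.769 and 0.928 in tail, so that the ranges over LTRs overlapped with those of most other sites. Site 3, the first CpG after the primer, was measured in 110 LTRs with a median of 0.926 in sperm and 0.932 in tail. Of its positions, 14 (12.7%) were scored lower and 2 (1.82%) higher in sperm, against 11.8% and 7.75% of all tested positions. At sites 7 and 8 the medians were 0.918 and 0.932 in sperm, against 0.928 and 0.939 in tail.

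The libraries differed most at the last CpGs, the CGCG that precedes the end of the LTR. The distance of these sites from the LTR end varies between copies. At site 9, with a median of 10 bases after its C, the median level was 0.881 in sperm and 0.949 in tail (median difference -0.055, 95% interval -0.091 to -0.0087) over 106 LTRs. Sperm was below tail in 71 of them, 26 (24.5%) were scored lower and 5 (4.72%) higher. Of all tested positions, 11.8% were scored lower and 7.75% higher. At site 10, with a median of 8 bases after its C, the median level was 0.899 in sperm and 0.969 in tail (-0.034, -0.093 to -0.011) over 104 LTRs. Here sperm was below tail in 76, 25 (24.0%) were scored lower and 3 (2.88%) higher. By contrast, 6 positions (8.57%) were scored lower and 6 (8.57%) higher at site 4 and 9 (8.26%) lower and 7 (6.42%) higher at site 6. The LTRs measured differ between sites. In the 20 LTRs measured at all downstream sites, the median difference was -0.00028 at site 9 and -0.016 at site 10, against -0.078 at site 7, so that in these copies the last CpGs did not stand out.

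**Figure D1:**
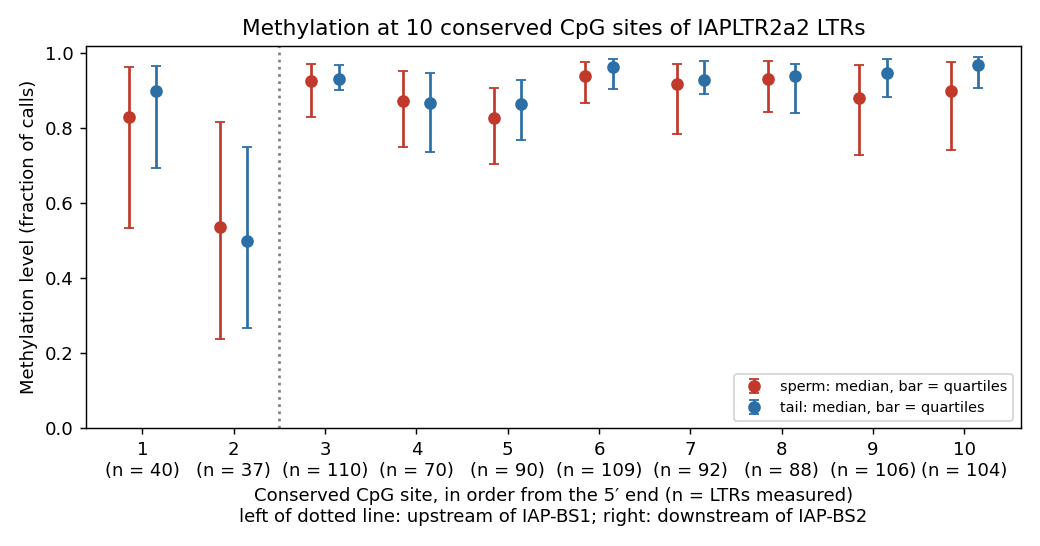
Methylation level (fraction of calls, y axis) at the 10 conserved CpG sites of IAPLTR2a2 LTRs (x axis, from the 5′ end), with points for the median over LTRs and bars for the quartiles in sperm and tail. Site 2 has the lowest medians, 0.538 in sperm and 0.50 in tail, and at sites 9 and 10 the sperm medians of 0.881 and 0.899 lie below the tail medians of 0.949 and 0.969.

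The levels at site 9 were set side by side by LTR type. In 5′ LTRs it had a median level of 0.759 in sperm and 0.934 in tail over 33 LTRs, a median difference of -0.157 (-0.243 to -0.064). Sperm was below tail in 28 of 33, and 11 (33.3%) were scored lower and 0 higher, where 11.8% and 7.75% of all tested positions were. In 3′ LTRs it was 0.957 in sperm and 0.968 in tail over 27 LTRs, with 4 (14.8%) lower and 1 (3.70%) higher. In solo LTRs it was 0.906 in sperm and 0.936 in tail over 46 LTRs, with 11 (23.9%) lower and 4 (8.70%) higher. Site 10 had another order. There the median difference was -0.044 in 38 5′ LTRs (0.894 in sperm, 0.942 in tail), -0.081 in 32 3′ LTRs (0.891 in sperm, 0.974 in tail) and -0.010 in 34 solo LTRs (0.918 in sperm, 0.956 in tail). The share scored lower at site 10 was 26.3% in 5′, 21.9% in 3′ and 23.5% in solo LTRs. The lowest 5′ LTR at site 9 was the copy in Igsf8, with 49 of 165 calls methylated in sperm (0.297) and 244 of 383 in tail (0.637). A copy with a high tail level was the 5′ LTR chr1:50159466-50159907, with 278 of 642 calls methylated in sperm (0.433) and 652 of 707 in tail (0.922). Sequencing downstream of a 5′ LTR runs into the body of the element, and downstream of a 3′ or solo LTR into the flank. The part of this difference in the values was not tested.

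**Figure D2:**
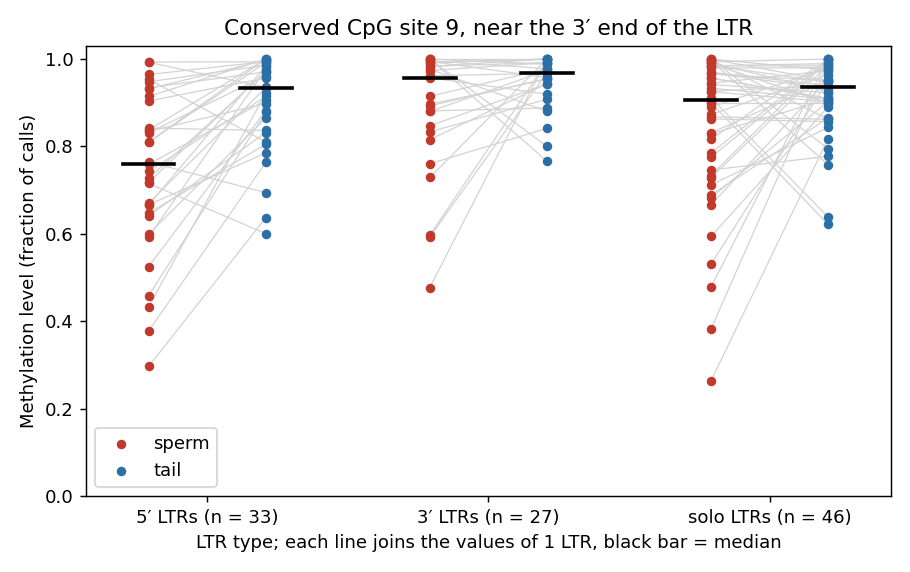
Methylation level (fraction of calls, y axis) at conserved CpG site 9 in each LTR, by LTR type (x axis), with sperm left of tail, a line joining the values of 1 LTR and black bars for medians. In 5′ LTRs the sperm median is 0.759 and the tail median 0.934, while in 3′ LTRs they are 0.957 and 0.968.

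Restricting site 9 of the 5′ LTRs to 100 calls in both libraries left 26 LTRs with sperm below tail in 22, 9 scored lower and 0 higher. Leaving out copies with the most common identical end left 28 LTRs with sperm below tail in 23, 9 lower and 0 higher. The choice of site 9 for this split by LTR type and both of these choices came after the values were seen. At the pairs of LTRs of 1 element, the 5′ LTR was below the 3′ LTR at site 9 in 17 of 21 elements in sperm (median 0.810 in 5′ and 0.962 in 3′ LTRs) and in 12 of 21 in tail (0.962 and 0.974). These pairs are LTRs of the split by type, and site 9 was not alone. In sperm the 5′ LTR was lower in 15 of 25 at sites 3 and 6, 12 of 19 at site 5 and 15 of 20 at site 7. It was lower in 17 of 27 at site 10, 7 of 14 at site 4 and 9 of 18 at site 8. In tail it was lower in 14 of 19 at site 5 and 19 of 27 at site 10. Over all positions within 12 bases of the LTR end, 24 of 74 (32.4%) were scored lower in 5′ LTRs, 11 of 59 (18.6%) in 3′ LTRs and 19 of 87 (21.8%) in solo LTRs. In the 5 other targeted subfamilies these shares were 13.9% of 251 positions in 5′, 8.47% of 248 in 3′ and 8.0% of 225 in solo LTRs. The window of 12 bases was not planned and takes in sites 9 and 10 at their median distances from the end.

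Over the whole downstream part, 5′ LTRs had a median level of 0.873 in sperm (0.838 to 0.895) and 0.915 in tail (0.904 to 0.925) at 260 positions. 3′ LTRs had 0.924 in sperm (0.900 to 0.941) and 0.956 in tail (0.943 to 0.968) at 214 positions, and solo LTRs 0.917 in sperm (0.904 to 0.932) and 0.934 in tail (0.920 to 0.946) at 316. The share scored lower in sperm was 16.9% in 5′, 19.2% in 3′ and 12.3% in solo LTRs, and the share scored higher 4.62%, 7.01% and 4.75%. Among all tested positions these shares were 11.8% and 7.75%, so that the solo LTRs lay close to the lower share of all positions. Positions of 1 LTR share reads, so the intervals of these medians are narrower than LTRs as units would give. Lower 5′ LTRs in sperm were also seen in the 5 other targeted subfamilies. Their downstream medians in sperm and tail were 0.864 and 0.931 in 5′, 0.927 and 0.943 in 3′, and 0.945 and 0.946 in solo LTRs. The median difference in 5′ LTRs was -0.051 there and -0.026 in IAPLTR2a2.

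Upstream of IAP-BS1 the order was different. 3′ LTRs had a median level of 0.529 in sperm and 0.417 in tail at 35 positions of 21 LTRs, 5′ LTRs 0.913 in sperm (0.538 to 0.969) and 0.820 in tail (0.565 to 0.881) at 22 positions of 13 LTRs, and solo LTRs 0.900 in sperm and 0.917 in tail at 41 positions of 22 LTRs. The 5′ LTRs were not high throughout, since 5 of their 22 positions (22.7%) were at or under 0.2 in sperm and 2 (9.09%) in tail, against 5 of 35 (14.3%) in sperm and 4 (11.4%) in tail in 3′ LTRs. At site 2, 17 3′ LTRs had a median of 0.362 in sperm and 0.267 in tail, 9 5′ LTRs 0.623 and 0.727, and 11 solo LTRs 0.818 and 0.733. At site 1 the median level was 0.536 in sperm and 0.714 in tail in 13 3′ LTRs and 0.857 in sperm and 0.956 in tail in 19 solo LTRs. Both libraries were low together: over all LTR types the median difference at site 2 was 0.018 (-0.065 to 0.097). In the 5 other targeted subfamilies the upstream median of 3′ LTRs was 0.880 in sperm and 0.906 in tail at 565 positions. Depth at sites 1 and 2 (medians of 53.5 and 32.0 calls in sperm, 60.5 and 41.0 in tail) and the match to IAP-BS1 differ along with these values, and their part was not tested.

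Levels were then averaged within LTRs. Over the mean of all covered positions, the 133 LTRs had a median of 0.821 in sperm (0.787 to 0.842) and 0.834 in tail (0.803 to 0.865), with ranges of 0.143 to 0.993 and 0.552 to 0.987. By this mean, 1 LTR was at or under 0.2 in sperm and 0 in tail. Among the 120 LTRs with at least 5 positions of 10 calls in both libraries, means over those positions had a median of 0.854 in sperm and 0.899 in tail. The lowest was 0.323 in sperm and 0.670 in tail, and 2 LTRs in sperm and 0 in tail were at or under 0.5. Sperm was below tail in 76 of the 120. At least 1 position was scored lower in 66 LTRs and higher in 32, and 16 LTRs had both. Each LTR has several positions, and 11.8% and 7.75% of all tested positions were scored lower and higher. These counts of LTRs were not set against other LTRs. As a description over these 120 LTRs, sperm and tail levels had a Pearson r of 0.384 and a Spearman correlation of 0.391. The LTRs share 2 libraries and their depth, and some are near copies of one another.

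**Figure D3:**
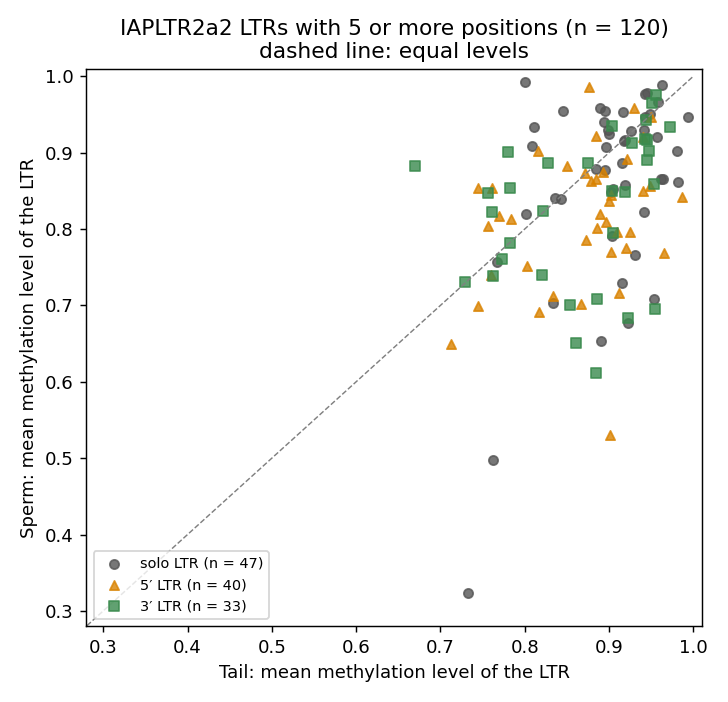
Mean methylation level of each of 120 IAPLTR2a2 LTRs in sperm (y axis) against tail (x axis), with marks for solo, 5′ and 3′ LTRs and a dashed line where both are equal. The points crowd in the upper right corner around the sperm median of 0.854 and the tail median of 0.899, and 76 of 120 lie below the line.

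Of these 120 LTRs, the lowest in sperm was the solo copy chr1:160767456-160767904, inside intronic sequence of Rabgap1l, the gene of a GTPase-activating protein of Rab GTPases. Its mean was 0.323 ± 0.225 in sperm and 0.733 ± 0.229 in tail (SD over 6 positions). Over all covered positions the mean was 0.143 in sperm and 0.840 in tail, and with summed calls 0.129 and 0.852. By either of these, this copy was the only 1 of the 133 LTRs at or under 0.2 in sperm. Both ends of it were read. At the first CpG, 12 bases from the start, 6 of 112 calls were methylated in sperm (0.054) and 26 of 36 in tail (0.722). At site 1, 29 of 334 were methylated in sperm (0.087) and 169 of 181 in tail (0.934), with Fisher's exact test giving an adjusted p of 1.84e-86. The 4 downstream positions had levels of 0.286 to 0.571 in sperm on 14 to 29 calls, against 0.40 to 0.923 in tail on 10 to 27 calls, and none of them was scored. Both scored positions of this copy were thus at its 5′ end.

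The solo LTR chr1:102909214-102909698, in a region between genes, had a mean of 0.498 ± 0.111 in sperm and 0.762 ± 0.107 in tail over 7 positions, on 10658 and 4475 calls. Levels in sperm were between 0.264 and 0.584, and in tail between 0.578 and 0.861, and sperm was below tail at each of the 7. The largest gap was at site 9, with 389 of 1472 calls methylated in sperm (0.264) and 571 of 698 in tail (0.818; Fisher's exact test, adjusted p = 1.03e-133). Among the 6 LTRs lowest in sperm it had the most calls, and its sperm level stayed under 0.6 at every CpG read downstream.

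The 5′ LTR chr1:172265674-172266012 lies in an intron of Igsf8, which encodes an immunoglobulin superfamily protein, 4033 bp from the gene start. It had a mean of 0.530 ± 0.327 in sperm and 0.901 ± 0.139 in tail over 6 positions. Its sperm levels changed from CpG to CpG. Site 3 had 142 of 219 calls methylated in sperm and 455 of 464 in tail, and site 6 had 161 of 175 in sperm and 384 of 390 in tail. At site 7 the level fell to 0.169 in sperm (29 of 172 calls), against 0.992 in tail (383 of 386; Fisher's exact test, adjusted p = 7.14e-97), and at site 10 to 0.273 in sperm (45 of 165), against 0.953 in tail (365 of 383; adjusted p = 1.23e-60). The 3′ LTR of the same element, whose printed bases differ at the very end, averaged 0.934 in sperm and 0.972 in tail (5 positions). Among the 29 elements with at least 5 positions in both LTRs, it was the one whose LTRs differed most in sperm, by -0.404 (5′ minus 3′).

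The 3′ LTR chr1:50162141-50162582 had a mean of 0.611 ± 0.294 in sperm and 0.885 ± 0.213 in tail over 9 positions. Its downstream CpGs fell into steps in sperm: 0.630, 0.637, 0.630 and 0.617 at sites 3, 5, 6 and 10, and 0.984 and 0.992 at sites 7 and 9. At site 4, 1 of 140 calls was methylated in sperm (0.0071, exact interval 0.00018 to 0.039) and 32 of 35 in tail (0.914; Fisher's exact test, adjusted p = 3.08e-29). Tail levels were 1.0 at the other downstream sites, on 34 to 69 calls. The 5′ LTR of this element has the same bases downstream of IAP-BS2, yet had 709 of 738 calls methylated in sperm at site 4 (0.961) and 707 of 726 in tail (0.974). Its own low sites in sperm were site 5 with 0.697 and site 9 with 0.433, against 0.964 and 0.922 in tail. The LTRs of this element therefore differed by 0.245 in sperm (0.856 in the 5′ and 0.611 in the 3′ LTR) and by 0.064 in tail.

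Like steps were seen in the 3′ LTR chr1:108139510-108139896, with a mean of 0.651 ± 0.223 in sperm and 0.861 ± 0.233 in tail over 10 positions. Sites 3, 4, 5, 7 and 8 had levels of 0.532 to 0.633 in sperm and 0.979 to 0.992 in tail. At sites 9 and 10, 201 of 201 calls were methylated in sperm, against 269 of 351 (0.766) and 372 of 374 (0.995) in tail. The same LTR thus had 5 positions scored lower and 1 higher in sperm. Its 5′ partner had a mean of 0.863 in sperm and 0.879 in tail. The remaining one of the 6 lowest, the 5′ LTR chr1:81982564-81982967, was low in both libraries at its upstream sites, with 2 of 45 calls methylated in sperm and 2 of 23 in tail at site 1, and 5 of 45 in sperm and 2 of 21 in tail at site 2. Its downstream positions had 0.718 to 0.872 in sperm and 0.785 to 0.986 in tail.

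**Figure D4:**
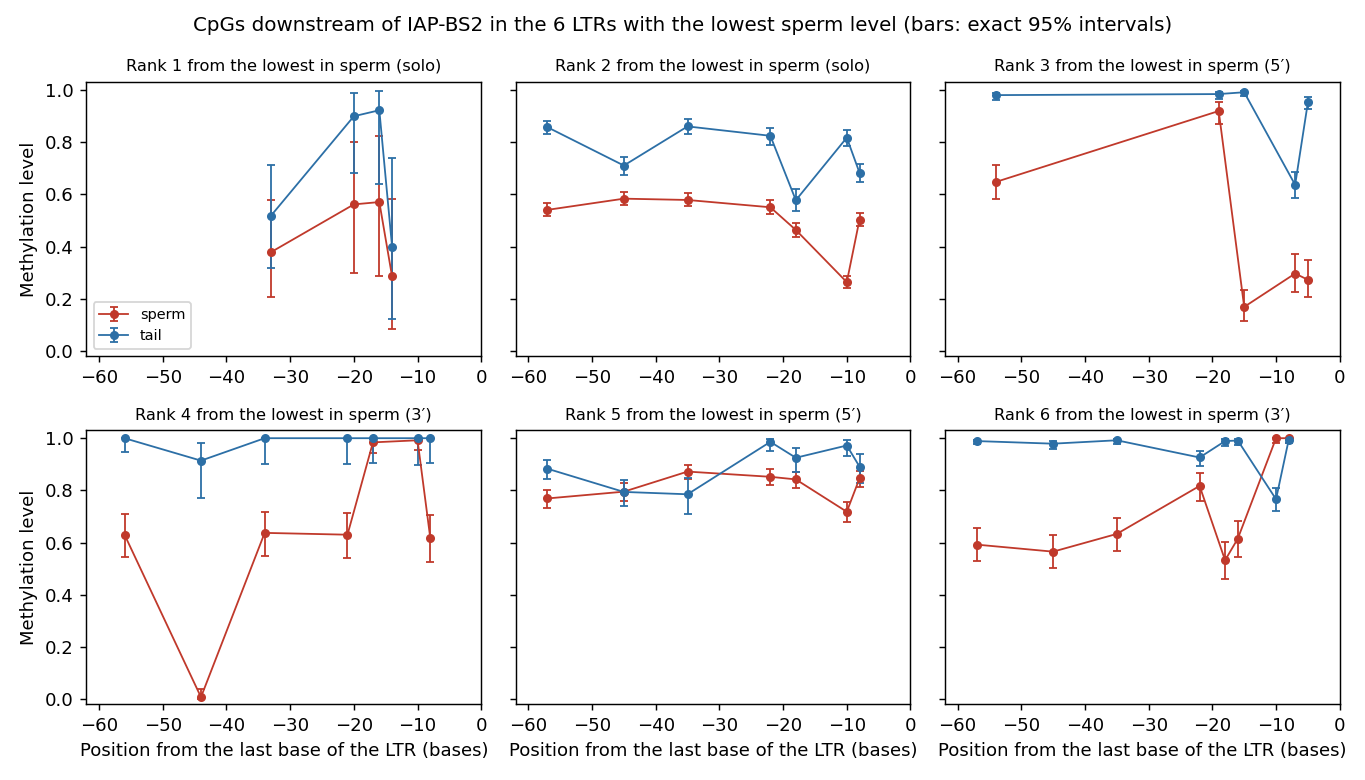
Methylation level (y axis) against the position from the last base of the LTR (x axis, bases) for CpGs downstream of IAP-BS2 in the 6 LTRs with the lowest mean in sperm, with sperm and tail as points and exact 95% intervals as bars. In the copy of rank 4, site 4 drops to 0.0071 in sperm and stays at 0.914 in tail, and in that of rank 2 every sperm point lies below its tail point.

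In the opposite direction, the solo LTR chr1:105618097-105618587 in an intron of Pign, a gene of glycosylphosphatidylinositol anchor synthesis, had a mean of 0.993 ± 0.0062 in sperm and 0.80 ± 0.179 in tail over 7 positions. Upstream it was high in both, with 295 of 298 calls methylated in sperm and 285 of 288 in tail at site 1. Downstream, 4 of 5 positions were scored higher in sperm, with levels of 0.983 to 0.996 in sperm and 0.508 to 0.758 in tail. At the last CpG, with 5 bases after it, 510 of 512 were methylated in sperm and 122 of 124 in tail. The 3′ LTR chr10:7367352-7367855, the lowest mean in tail, averaged 0.882 ± 0.070 in sperm and 0.670 ± 0.255 in tail over 5 positions, and 2 were scored higher in sperm on 17 and 53 tail calls. The solo LTR chr10:11254119-11254650 averaged 0.933 ± 0.047 in sperm and 0.811 ± 0.140 in tail over 10 positions, on 36905 and 8934 calls. Its largest gap was at the CpG with 38 bases after it, with 4003 of 4798 methylated in sperm (0.834) and 519 of 1035 in tail (0.501; Fisher's exact test, adjusted p = 7.52e-103).

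The 3′ LTR chr1:129092610-129092949, also among the lowest in tail, averaged 0.730 ± 0.272 in sperm and 0.729 ± 0.287 in tail over 8 positions. Its upstream sites were low in both libraries, with 8 of 21 calls methylated in sperm and 32 of 100 in tail at site 1. A copy at the median in sperm, the 5′ LTR chr1:44360194-44360677, averaged 0.854 ± 0.114 in sperm and 0.745 ± 0.179 in tail over 7 positions. Even in this copy neighbouring CpGs differed: site 7 had 0.976 and site 8 had 0.670 in sperm, against 0.883 and 0.471 in tail. In the 117 LTRs with at least 5 positions downstream, the range of levels within an LTR had a median of 0.218 in sperm and 0.164 in tail. Neighbouring positions differed by at least 0.2 in 119 of 666 cases (17.9%) in sperm and in 96 of 666 (14.4%) in tail.

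Of single positions that had 50 calls or more in each library, the largest gap was at chr10:19801502, site 10 of the 3′ LTR chr10:19801157-19801508, with 5 of 115 calls methylated in sperm (0.044) and 74 of 75 in tail (0.987; Fisher's exact test, adjusted p = 5.17e-44). In the same LTR, chr10:19801488, which is site 6, had 114 of 115 methylated in sperm (0.991) and 28 of 76 in tail (0.368; Fisher's exact test, adjusted p = 6.26e-23). The mean of this LTR was 0.823 in sperm and 0.822 in tail, so that the average hid gaps of both signs. The largest gap with sperm higher was at chr1:96969262, in the 5′ LTR chr1:96969248-96969820 within the pseudogene Slco6b1, with 619 of 683 methylated in sperm (0.906) and 40 of 162 in tail (0.247; Fisher's exact test, adjusted p = 7.65e-62), and chr1:96969283 in the same LTR had 668 of 713 in sperm and 79 of 149 in tail. In the 3′ LTR chr1:65889600-65889935, site 6 had 253 of 257 methylated in sperm and 39 of 74 in tail. The solo LTR chr10:30147805-30148207 was low at site 9 in sperm, with 44 of 115 methylated (0.383), against 115 of 116 in tail, while its mean was 0.902 in sperm and 0.981 in tail.

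Copies with the same end did not have the same level. Downstream of IAP-BS2, 13 LTRs had the same 58 bases with 6 CpGs, printed above as the end of chr1:8658361-8658689. As whole LTRs they differed, with lengths of 329 to 359 bp and a divergence from the consensus of 43 to 62 per mille. They were 1 solo, 6 5′ and 6 3′ LTRs. Of these, 12 had at least 5 measured positions, and their means ran over 0.684 to 0.975 in sperm and 0.822 to 0.965 in tail. The lowest in sperm was the 3′ LTR chr1:47223461-47223789, with 0.684 in sperm and 0.922 in tail on 73924 and 23786 calls, the deepest LTR of all in sperm. The highest was the 3′ LTR chr1:77671520-77671878, with 0.975 in sperm and 0.956 in tail on 7927 and 1544 calls. At the CpG with 33 bases after it, the 12 copies had 0.520 to 0.951 in sperm and 0.627 to 0.933 in tail. Position scores in the 13 copies were 14 lower (18.7%) and 2 higher (2.67%) out of 75, against 11.8% and 7.75% of all tested positions. The mapping kept read pairs with 1 best place, so these copies were told apart by bases outside the shared end.

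**Figure D5:**
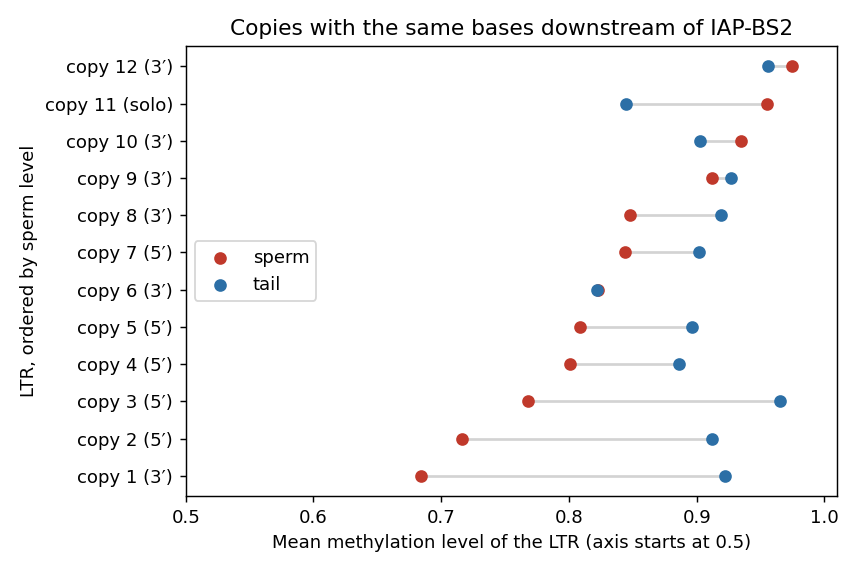
Mean methylation level (x axis, starting at 0.5) of the 12 LTR copies (y axis, by sperm level) that share the same 58 bases downstream of IAP-BS2 and have at least 5 positions, in sperm and tail. Sperm levels spread over 0.684 to 0.975 and tail levels over 0.822 to 0.965.

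LTRs of 1 element could be compared in 33 elements. The absolute difference between the 5′ and 3′ LTR had a median of 0.084 in sperm and 0.063 in tail, and the 5′ LTR was lower in 17 in sperm and in 20 in tail. The largest, 0.608 in sperm, set a 5′ fragment of 224 bp against a 3′ fragment of 358 bp with 1 position and 43 sperm calls. These fragments differ in length, so this value is no difference between matching LTRs. A 3′ fragment of 224 bp at this locus, chr1:48670987-48671210, entered no pair. It had 0.795 in sperm over 8 positions, against 0.751 in the 5′ fragment. The values over 33 elements include the unmatched pair. In the 29 elements with at least 5 positions in both LTRs, the medians were 0.084 and 0.063. The 5′ LTR was lower in 17 of these in sperm and 18 in tail. As a description, levels of both LTRs of an element had a Spearman correlation of 0.279 in sperm and 0.194 in tail over the 33 elements. In 11 elements the LTRs had the same bases downstream of the primer, and their absolute difference had a median of 0.131 in sperm and 0.054 in tail. Over these 11 elements the Spearman correlation was -0.027 in sperm and -0.509 in tail, so the weak positive relation was not seen in them.

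A second sequence form lacks 4 bases at the primer site and reads ctgagtaag where the printed full-length copies read ctgaagatgtaag. It was found in 13 IAPLTR2a2 copies, of which 10 are solo, and in 1 of the 632 measured IAP LTRs of other subfamilies. Their divergence from the consensus was 99 to 129 per mille, against a median of 38.0 in the other copies, and the mismatch to IAP-BS2 had a median of 9.0. The solo copy in Rabgap1l belongs to this form, and so do chr10:7367352-7367855 and chr10:11254119-11254650, which were lower in tail. LTR means of the form ran over 0.323 to 0.954 in sperm (median 0.882) and 0.670 to 0.977 in tail (median 0.895). Of its 82 positions, 13 (15.9%) were scored lower and 10 (12.2%) higher, against 15.6% and 4.67% of 814 positions in the other copies. Among solo LTRs alone, 12 of 65 positions (18.5%) were scored lower and 4 (6.15%) higher in the short form, against 36 (12.2%) and 13 (4.42%) of 294 in the others. The form was noticed after the values were seen and is given without a test. The letters GGGAGGG (either strand) were found in 0 of the 133 LTRs and in 9 of the 632 other LTRs (1.42%).

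By position relative to genes (GENCODE M21), 96 LTRs lay between genes, 34 in introns and 3 over annotated exons. The exon overlaps were with Iqca (solo LTR chr1:90089926-90090364, 0.929 in sperm and 0.899 in tail), with Hhat, which encodes the acyltransferase of Hedgehog proteins (solo LTR chr1:192629957-192630200, 0.878 in sperm and 0.884 in tail), and with the pseudogene Gm18182. The overlap with Gm18182 was at a 3′ LTR, chr1:117747174-117747575, with 0.708 in sperm and 0.886 in tail, and the 5′ LTR of the same locus had 0.702 in sperm and 0.867 in tail. A start of a gene lay within 5 kb of 13 LTRs. Over all covered positions their LTR means had a median of 0.842 in sperm and 0.862 in tail, and those of LTRs between genes 0.801 in sperm and 0.828 in tail. In an intron of Slc9a2, a sodium and proton exchanger gene, the 5′ LTR chr1:40697999-40698339 had 0.842 in sperm and 0.987 in tail and the 3′ LTR 0.916 in sperm and 0.945 in tail. The near gene start of both is that of Gm37623, while the Slc9a2 start is 17425 and 21535 bp away. The solo LTR chr1:95828392-95828824, near the small nuclear RNA gene Gm22360, had 0.184 in sperm and 0.988 in tail, but on 2 positions and 44 calls in sperm over the whole LTR, against 639 in tail.

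Of the remaining LTRs near gene starts, the solo LTRs chr1:9984355-9984822 near Gm15818 and chr1:12653193-12653574 near Gm6216 had 0.953 and 0.959 in sperm, against 0.916 and 0.889 in tail. The solo LTR chr1:15367571-15367899, near Gm38116, had 0.955 in sperm and 0.845 in tail. It lies in an intron of Kcnb2, a potassium channel gene whose start is 80317 bp away. The 5′ LTR chr1:86320319-86320930 near Gm5258 had 0.875 in sperm and 0.893 in tail, and the solo LTR chr1:165580582-165581030 near Gm38210 had 0.757 in sperm and 0.767 in tail. The solo LTR chr1:16762164-16762584 near Gm29649 had no position with 10 calls in both libraries. It was also the LTR just inside the limit on calls, with 27 in sperm and 47 in tail (means over all covered positions of 0.461 and 0.862), together with the 5′ LTR chr1:48673883-48674230 with 28 in sperm and 20 in tail (means of 0.831 and 0.925). Just outside it were the solo LTR chr1:27397182-27397632, with 19 calls in sperm and 33 in tail (0.572 and 0.581), and the 3′ LTR chr1:45239053-45239266, with 18 in sperm and 26 in tail (0.357 and 0.727).

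Downstream of IAP-BS2, IAPLTR2a2 had a median level of 0.906 in sperm and 0.933 in tail at 790 positions. The 5 other targeted subfamilies (IAPLTR1, IAPLTR1a, IAPLTR2, IAPLTR2a and IAPLTR2b) had 0.913 in sperm and 0.939 in tail at 2882 positions. The share of positions scored lower in sperm was 15.7% in IAPLTR2a2, 13.9% in IAPLTR2, 9.46% in IAPLTR2b, 8.44% in IAPLTR2a, 6.99% in IAPLTR1a and 4.31% in IAPLTR1. Over all tested positions it was 11.8%, so that 4 of these 5 subfamilies lay under that share. In IAPEY, which the primers match less well, 35.5% of 172 positions were scored lower, at median levels of 0.830 in sperm and 0.958 in tail. Within 12 bases of the LTR end the share was 24.5% of 220 positions in IAPLTR2a2 and 10.2% of 724 in the 5 subfamilies, and farther from the end 12.3% of 570 and 8.02% of 2158. This unplanned window takes in the sites where the libraries differed most in IAPLTR2a2. Its share there repeats that result, and the other subfamilies are set against it at a place fitted to IAPLTR2a2. Positions of an LTR are not independent and each tissue has 1 library, so these shares are given as a description and the difference between subfamilies was not tested.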

How the data were processed

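Genomic DNA of sperm and tail from 1 mouse was bisulfite-treated, random-primed and amplified with IAP primers. After trimming, the authors aligned reads to the mm10 genome (GRCm38) using Bismark defaults, dropped pairs with several matches and deposited the count of methylated and unmethylated calls per CpG position, and the percent methylation, which was not used. For Bismark, a version was not given in the sources used here. Of the study's list of IAP copies 1997 of 28601 rows were used here, which gave intervals, subfamilies and LTR types. The files hold 95744413 calls in sperm and 55366653 in tail.

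Positions were assigned to LTRs by coordinates. LTRs were aligned with MAFFT 7.526, and primers of the labels were matched to the converted LTR sequence to set the parts. Fisher's exact test was run with scipy 1.17.1 on Python 3.11.15 and tested on simulated data. Shares have exact 95% intervals (Clopper-Pearson), medians order-statistic intervals. Genes came from GENCODE M21. Alternatives were call minimums of 5 and 100 per position and 100 per LTR, merged strands, intervals shortened by 20 bp, each LTR counted once, differences of 0.1 and 0.3, summed calls, types over the whole LTR, and the LTR length cut in 4 equal parts.

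The members and lists were chosen with earlier results of these data known. LTRs and positions named were, among LTRs with at least 5 positions, the 6 lowest in sperm, the 3 lowest in tail, the 3 largest differences in each direction, the LTR nearest the sperm median, the 3 elements whose LTRs differed most, conserved sites in at least 20 LTRs, the 5 largest scored differences in each direction with at least 50 calls, LTRs over exons or within 5 kb of a gene start, and those next to the limit of 20 calls. Copies with identical ends and the short primer site were added after the values were seen.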

Additional observations from a re-analysis of the deposited data

How the results depend on the processing

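Of 74 values under an alternative, 49 stayed within the interval of the main value or, for counts, within 1.5 times of it, and the median difference over the members stayed below 0 under each alternative tried. With 100 calls per position, 29 positions were higher in sperm (4.52%, against 5.31% of all tested positions), 0.312% in sperm and 0% in tail were at or under 0.2, and 73.2% in sperm and 85.8% in tail were above 0.8. With 5 calls, 1.48% in tail were at or under 0.2. With LTRs shortened by 20 bp, 59 positions were lower and 29 higher (all tested positions 11.8% and 7.75%), median levels were 0.885 in sperm and 0.912 in tail, their median difference -0.0021, and 74.7% in tail were above 0.8. Fewer positions enter with 100 calls and with shortened LTRs, 642 and 470. With each LTR once, 77.5% in sperm and 92.2% in tail were above 0.8, and 0% in tail at or under 0.2. A difference of 0.1 gave 225 lower and 92 higher (all positions 19.6% and 13.1%), and one of 0.3 gave 76 and 22 (7.32% and 5.0%). With summed calls, LTR medians were 0.858 in sperm and 0.902 in tail, and 0.854 in sperm and 0.901 in tail with positions of at least 10 calls. 3′ LTRs over their whole length had 0.900 in sperm and 0.941 in tail. The causes were not tested. No paired analysis was possible because each tissue has 1 library, and no library could be left out for the same reason. Depth limits what the upstream part shows, since most of its positions had under 100 calls.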
